A study of Rattus norvegicus with 6 samples.

Results

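Rab GTPases are small membrane-bound switches that set where transport vesicles form, move and fuse. A Rab is held in the cytosol in its GDP-bound form by the GDP dissociation inhibitor (GDI), and on a membrane an exchange factor (GEF) loads it with GTP. The GTP-bound Rab recruits effectors such as tethers, motors and sorting proteins until a GTPase-activating protein (GAP) ends the signal. Each Rab marks its own compartment, and in mesenchymal cells the family serves matrix secretion, integrin recycling and the fusion of autophagosomes with lysosomes. The Rab genes described here were all rows of the deposited count table whose symbol is Rab followed by a number, with an optional letter and digit. They numbered 56 of 33508 rows, and each was placed in 1 compartment from general knowledge of the family. Rab1b and Rab5a were not among the symbols matched and were not analysed here.

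The libraries came from rat bone marrow mesenchymal stem cells (BMSCs) taken from the femur and tibia of 2-month-old male Sprague-Dawley rats and used at passage 3. By the study's methods, BMSCs-OE-FNDC5 carried a lentivirus that overexpresses FNDC5, the precursor of the secreted peptide irisin, and BMSCs-OE-NC carried the blank vector. Both groups, with 3 libraries each, spent 24 h under hypoxia and serum deprivation (H/SD) at 1% O2, 94% N2 and 5% CO2 without glucose or serum, so no normoxic library enters. The labels call the libraries biological replicates without naming separate rats, cultures or transductions, so the p-values measure the spread between these libraries, which may be technical. The question for the family was which Rab genes differed in mRNA level between the 2 kinds of BMSC under the same injury.

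Each library held between 16640635 and 17965722 counts, the BMSCs-OE-NC libraries (from 17430287) somewhat more than the BMSCs-OE-FNDC5 libraries (up to 17229490). Fndc5 had 17 to 25 counts in the control libraries and 64195 to 65589 in the others, as the labels say. All 8 mesenchymal markers listed for the check were present. They moved in both directions with TMM, with Vim (log2 fold change 0.94), Thy1 (1.29), Cd44 (0.41) and Eng (0.26) higher and Pdgfrb (-1.62), Nt5e (-1.31), Itgb1 (-1.02) and Col1a1 (-0.34) lower. Their summed level, to which Vim and Col1a1 gave most, was 8953 to 9031 CPM (library-scaled counts) in the control group and 10490 to 10588 CPM in the FNDC5 group, and the part of these differences in the Rab results was not tested. No library had more than 3 counts of any of the 4 haematopoietic markers in the table, and the endothelial marker Cdh5 was at 0. The labels' extraction text speaks of retinas, but Crx and Rcvrn were at 0 and no retinal marker exceeded 2 counts. The scaling factors of edgeR's trimmed mean of M values (TMM) lay at 1.13 to 1.14 for the control group and at 0.877 to 0.882 for the FNDC5 group, so the choice of scaling moves every fold change given below. In bulk RNA, fewer cells of a type and less RNA per cell cannot be told apart.

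Of the 56 Rab genes, 51 had at least 1 count and 43 passed the low-count filter and were tested. Rab38, Rab3c, Rab19, Rab17 and Rab44 were listed at 0 in every library. A further 8 genes had too few counts to test. These were Rab27b (4 to 21 counts per library), Rab40b (5 to 12), Rab36 (3 to 9), Rab9b (0 to 7), Rab25 (0 to 8), Rab39a (0 to 6), Rab3b (0 to 4) and Rab37 (0 to 3). Several of the silent or near-silent members are known from specialised cells, such as Rab38 from pigment cells, Rab3b and Rab3c from neurons and endocrine cells, and Rab17 and Rab25 from epithelia.

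Per gene length, the family was dominated by a few genes. FPKM corrects for length, so it is the scale on which levels of different genes are set side by side here. As deposited, it is a count scaled by gene length and by a factor per library that is not library size alone. Over all genes tested, the median log2 fold change between the groups was -0.02 with log2(FPKM + 0.1) and -0.41 with scaling by library size only. Comparisons of FPKM between the groups carry that scaling. Throughout, ± is the SD over the 3 libraries of a group. In BMSCs-OE-NC, Rab11b of the recycling endosome stood at 222 ± 1.90 FPKM and Rab2a, which acts between the ER and the Golgi, at 221 ± 7.42 FPKM, a pair whose libraries overlapped. Rab34, a Golgi-associated Rab that also acts in the building of cilia, followed at 193 ± 0.630 FPKM. Rab5c, an organiser of early endosome fusion, came below them at 169 ± 3.50 FPKM. In BMSCs-OE-FNDC5 the order changed, with Rab34 first at 356 ± 5.63 FPKM. Rab11b at 274 ± 4.07 FPKM and Rab5c at 263 ± 7.30 FPKM came next. Their libraries all but met, with 270.2 FPKM as the lowest for Rab11b and 269.9 FPKM as the highest for Rab5c. Rab2a stood below them at 230 ± 8.99 FPKM. Rab31 moved from rank 5 to rank 10 and Rab13 from rank 11 to rank 6. The 5 highest genes of each group held 47.9% of the summed Rab FPKM in BMSCs-OE-NC and 54.0% in BMSCs-OE-FNDC5. The level of Rab2a leans on a gene length of only 621 bases in the table.

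Summed over the family, the Rab genes took 0.426% ± 0.00151 of all counts in BMSCs-OE-NC and 0.348% ± 0.00395 in BMSCs-OE-FNDC5. Per length the order was the opposite, with a summed level of 1969 ± 18.4 FPKM and 2343 ± 26.2 FPKM. The sum over the family thus had a lower share of the counts and a higher total of deposited FPKM in BMSCs-OE-FNDC5, and no direction for the family as a whole is drawn from it.

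The make-up of the family by compartment differed between the groups in every compartment without overlap of the libraries. Early endosomal Rabs held 23.9% ± 0.0543 of the summed Rab FPKM in BMSCs-OE-NC and 22.4% ± 0.349 in BMSCs-OE-FNDC5. Within them Rab31 went from 7.01% to 2.91% and Rab5c from 8.56% to 11.2%. Rabs of the ER and of ER to Golgi transport went from 19.2% ± 0.330 to 14.96% ± 0.153. Late endosomal and lysosomal Rabs went from 12.1% ± 0.130 to 9.37% ± 0.0742. These 3 compartments had the smaller shares in BMSCs-OE-FNDC5. A smaller share need not be a lower level, since the summed Rab FPKM was 2343 in BMSCs-OE-FNDC5 and 1969 in BMSCs-OE-NC. Of the 6 early endosomal genes, 4 were called higher with TMM although their share was smaller. Golgi Rabs went from 13.1% ± 0.171 to 17.7% ± 0.209, of which Rab34 alone held 9.79% and 15.2%. Recycling endosomal Rabs went from 20.7% ± 0.228 to 22.3% ± 0.380, with Rab4b at 3.73% and 5.23%. Secretory Rabs went from 7.69% ± 0.163 to 10.2% ± 0.122, with Rab13 at 2.61% and 5.40%. These last compartments had the larger shares in BMSCs-OE-FNDC5. The remaining Rabs, of cilia, autophagosomes and other sites, held 3.27% ± 0.0873 and 3.02% ± 0.152, and this difference of -0.249 percentage points was 0.383 when CPM was summed in place of FPKM.

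**Figure D1:**
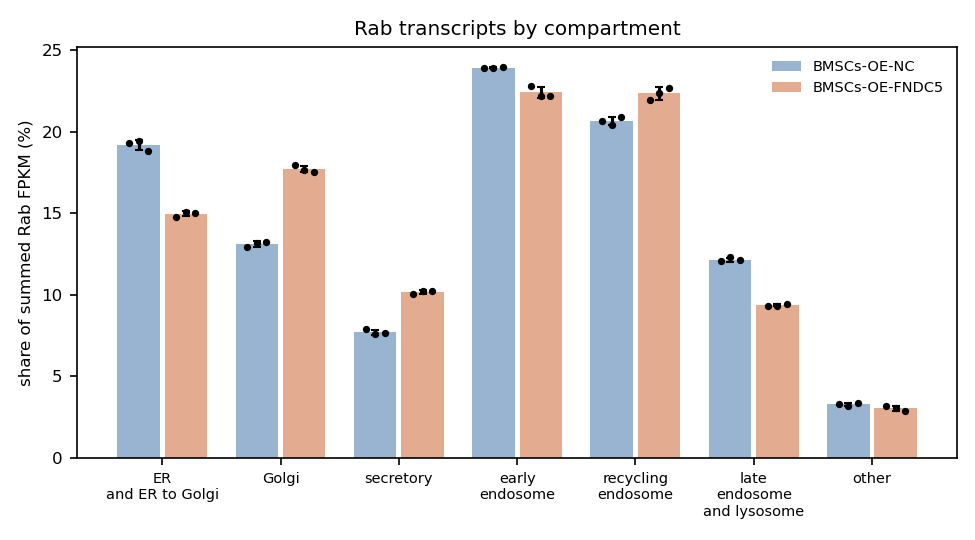
Share of each compartment in the FPKM summed over the Rab genes (y axis, percent), as bars at the mean of 3 libraries with the SD, with 1 point per library, for BMSCs-OE-NC and BMSCs-OE-FNDC5. The ER share was 19.2% against 14.96% and the Golgi share 13.1% against 17.7%. The libraries of the groups did not overlap in any compartment, beside 78.3% of all single genes tested. The summed Rab FPKM was higher in BMSCs-OE-FNDC5, so a smaller share need not be a lower level.

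Single Rab genes differed often, but no more often than other genes. With edgeR's quasi-likelihood test and Benjamini-Hochberg adjustment over all 12104 genes tested, 33 of the 43 Rab genes (76.7%) had an adjusted p under 0.05, against 75.7% of all genes tested. Of these, 19 were higher in BMSCs-OE-FNDC5 (44.2%, against 36.9% of all genes) and 14 were lower (32.6%, against 38.8%), whereas with scaling by library size only 9 were higher (all genes 22.0%) and 23 lower (all genes 55.4%). The libraries of the groups did not overlap for 20 Rab genes that were higher and 14 that were lower, together 79.1% against 78.3% of all genes. The median log2 fold change, always of BMSCs-OE-FNDC5 relative to BMSCs-OE-NC, was 0.22 over the Rab genes and -0.04 over all genes tested. Library size only shifted the median of all genes by -0.37 and upper-quartile scaling by -0.10, and relative to the median of all genes the Rab median stayed at 0.26 in both and with TMM. With the trend of each library's counts with gene length removed, the median was 0.08 for the Rab genes and 0.09 for all genes, a shift of 0.13 for the latter. In that fit 19 Rab genes were higher (all genes 40.7%) and 15 lower (all genes 30.8%). Library size only lowered every Rab log2 fold change by almost the same amount (-0.36 to -0.37), so single genes are given with that scaling mainly where their sign or call changed. Length removal moved single genes by -0.57 to 0.89.

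Large differences were few. At an adjusted p under 0.05 and a log2 fold change over 1, Rab15, Rab13 and Rab20 rose, 3 of 43 beside 9.84% of all genes tested. Below -1, Rab31, Rab6a, Rab32 and Rab8b fell, 4 of 43 beside 17.5% of all genes. Rab6a, at -1.002, sat on the threshold. Rab34 at 0.86 and Rab14 at -0.83 were the nearest called genes inside it.

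**Figure D2:**
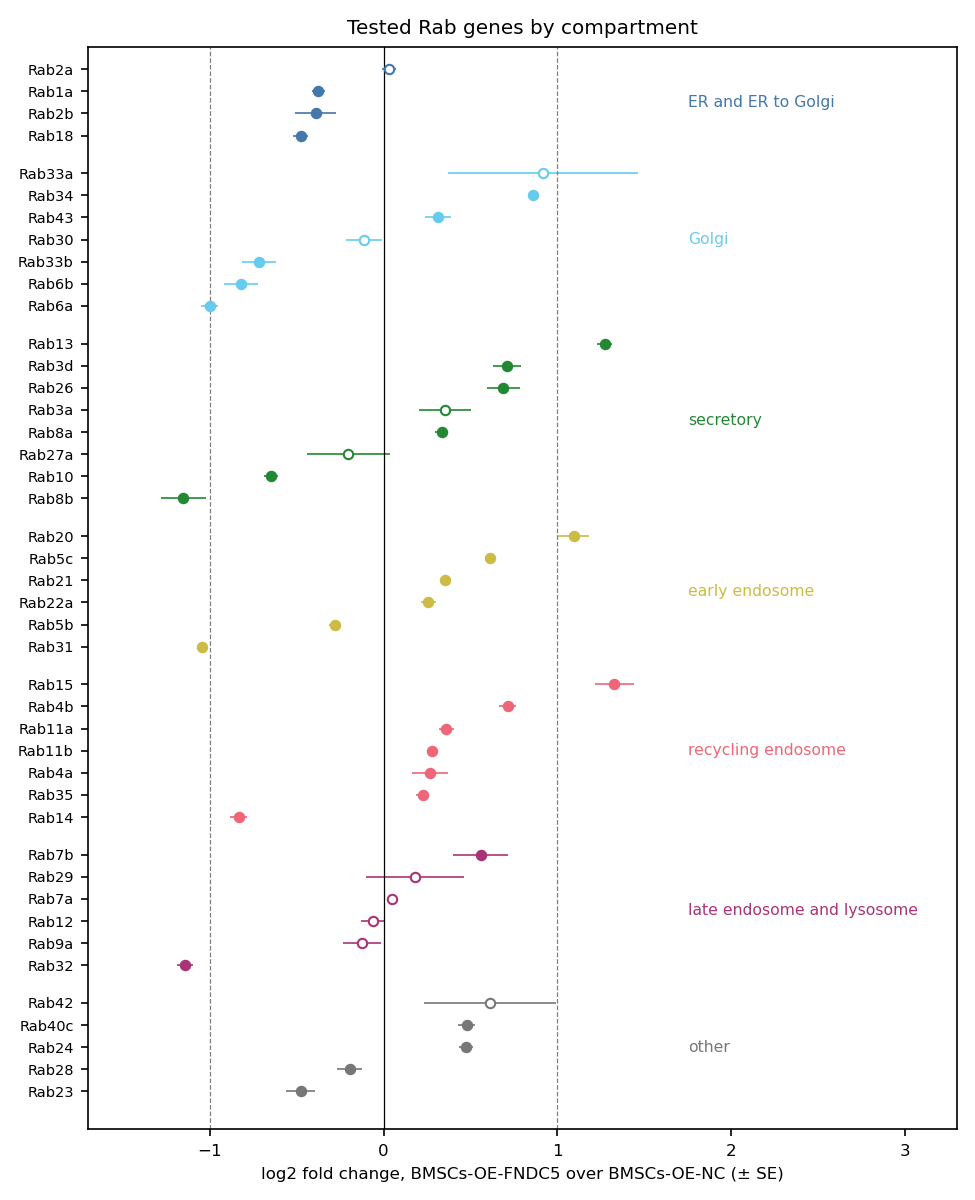
Log2 fold change of the 43 tested Rab genes in BMSCs-OE-FNDC5 relative to BMSCs-OE-NC, with TMM scaling (x axis), with the standard error as a bar, grouped by compartment, with filled points at an adjusted p under 0.05. The values run from -1.15 for Rab8b to 1.33 for Rab15, no ER gene lies to the right with a filled point, and 12 genes above 0 with TMM, among them Rab11b and Rab21, lie below 0 with library size only.

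Rabs of the ER and of ER to Golgi transport had no member called higher with TMM, with library size only or with the length trend removed. A row that the table describes as similar to Rab1b, LOC100363782, does not carry a Rab symbol and lies outside this count, and it was called higher in all 3 fits (0.54, 0.17 and 0.48). Of 4 tested genes, 3 fell with TMM (75%, against 38.8% of all genes) and 1 did not pass, with a median log2 fold change of -0.38. Rab1a, which drives ER to Golgi transport and early autophagosome formation, stood at 200, 203 and 195 CPM in BMSCs-OE-NC and at 152, 148 and 160.0 CPM in BMSCs-OE-FNDC5. It fell by 0.38 on the log2 scale (standard error (SE) 0.04, adjusted p = 2.2e-06). All control libraries lay above all others. Rab18, which links the ER with lipid droplets, changed by -0.48 (adjusted p = 1.8e-06). Rab2b, a relative of Rab2a, changed by -0.39 (adjusted p = 0.010), or by -0.71 with the length trend removed, and it shares 211 bases with Tox4 on the other strand, a gene with more counts than its own. Rab2a, the highest member, had 143, 141 and 135 CPM in BMSCs-OE-NC and 141, 149 and 138 CPM in BMSCs-OE-FNDC5. Its groups overlapped and the log2 fold change of 0.03 with TMM did not pass (adjusted p = 0.50). It was called lower with the length trend removed (-0.54, adjusted p = 2.1e-07) and with library size only (-0.34, adjusted p = 1.1e-05).

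Golgi Rabs moved in both directions. Of 10 members 7 were tested. With TMM 2 rose (28.6%, against 36.9% of all genes), 3 fell (42.9%, against 38.8%) and 2 did not pass. Rab34 (chr10:65448950-65452177 in the deposited table, plus strand) had 222, 223 and 223 CPM in BMSCs-OE-NC and 409, 408 and 397 CPM in BMSCs-OE-FNDC5. The groups lay far apart, and the log2 fold change was 0.86 (SE 0.03, adjusted p = 1.7e-10), 0.53 with the length trend removed and 0.49 with library size only. Rab6a (chr1:165625058-165664192, plus strand), which carries retrograde traffic through the Golgi towards the ER, had 64.2, 66.6 and 67.3 CPM in BMSCs-OE-NC and 33.1, 34.2 and 31.5 CPM in BMSCs-OE-FNDC5. No library of BMSCs-OE-FNDC5 came near the control level, and the log2 fold change was -1.002 (SE 0.05, adjusted p = 7.5e-09). Its relative Rab6b, better known from neurons, also fell, by 0.82 (adjusted p = 1.4e-05), and with the length trend removed its value of -0.20 did not pass. Rab33b, a Golgi Rab that binds the autophagy protein Atg16l1, fell by 0.72 (adjusted p = 3.8e-05), and by 0.31 with the length trend removed. Rab43 was higher by 0.31 (adjusted p = 0.0027) with TMM and at -0.06 with library size only. Rab30 (-0.11) and the low-count Rab33a (0.92, 4 to 16 counts) did not pass with TMM, and their groups overlapped. Rab30 was called lower with the length trend removed (-0.27) and with library size only (-0.48).

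Secretory Rabs, which bring vesicles and granules to the plasma membrane, had 8 tested genes of 12. With TMM 4 rose (50%, against 36.9% of all genes), 2 fell (25%, against 38.8%) and 2 did not pass. Rab13 (chr2:189581644-189586338, plus strand), which delivers cargo to cell junctions and the leading edge, was the highest of them per length. It had 57.8, 56.8 and 52.8 CPM in BMSCs-OE-NC and 132, 139 and 134 CPM in BMSCs-OE-FNDC5. It rose by 1.27 (SE 0.04, adjusted p = 4.0e-10), with the smallest SE of the 3 rises past both thresholds. Rab8b (chr8:72638003-72714664, minus strand), one of the Rab8 pair of Golgi to surface transport, moved the other way, from 13.1, 12.3 and 13.4 CPM to 5.42, 5.32 and 6.69 CPM. It fell by 1.15 (SE 0.13, adjusted p = 9.7e-06), and by 0.57 with the length trend removed. Rab10, which moves the glucose transporter GLUT4 and other cargo to the surface, fell by 0.65 (adjusted p = 5.7e-08), and by 0.39 with the length trend removed. The granule Rabs Rab3d and Rab26 rose by 0.71 (adjusted p = 1.2e-05) and 0.69 (adjusted p = 4.8e-05). Rab8a was higher by 0.34 (adjusted p = 9.9e-06) with TMM and at -0.03 with library size only. Rab27a, a Rab of lysosome-related organelles and exosome release, was low, with 1.84 to 2.95 CPM over all libraries. With library size only it was called lower (-0.57, adjusted p = 0.048), while with TMM it did not pass (-0.20, adjusted p = 0.46). Rab3a at 0.35 (adjusted p = 0.052) did not pass either, though it did at 0.47 without BMSCs-OE-FNDC5 replicate 1, and it overlaps Mpv17l2 on the other strand, which had more counts.

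**Figure D3:**
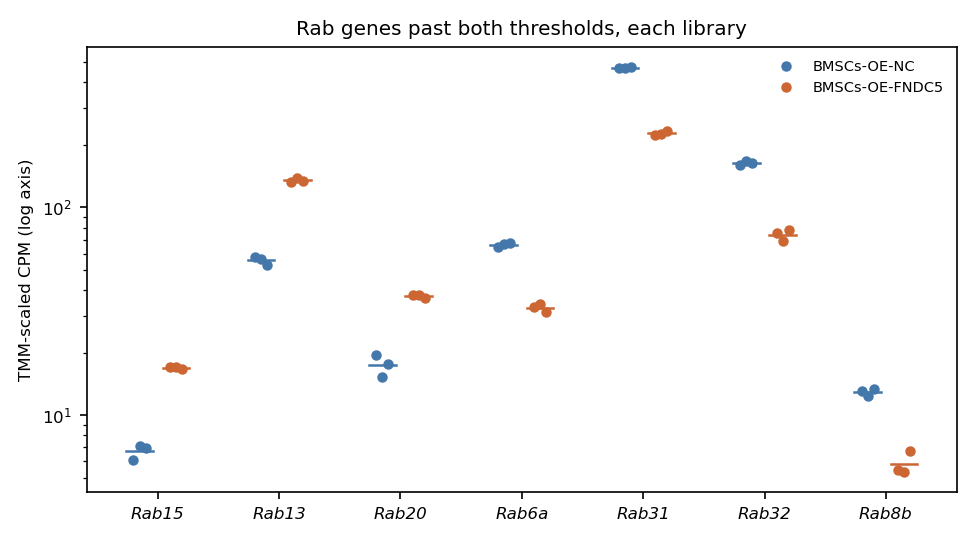
TMM-scaled CPM in each library (y axis, log scale) for the 7 Rab genes past both thresholds, with 1 point per library coloured by group and a line at the mean of 3. Rab13 lies at 52.8 to 57.8 CPM in BMSCs-OE-NC and 132 to 139 CPM in BMSCs-OE-FNDC5, and Rab31 at 467 to 473 CPM and 222 to 234 CPM, and the points of the groups do not overlap for any of the 7.

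All 6 early endosomal Rabs were tested and all passed with TMM, beside 75.7% of all genes. There 4 were higher (66.7%, against 36.9%) and 2 lower (33.3%, against 38.8%). With library size only 2 were higher (all genes 22.0%), 3 lower (all genes 55.4%) and 1 did not pass. Rab5c (chr10:88621925-88645364, minus strand) had 323, 326 and 315 CPM in BMSCs-OE-NC and 506, 492 and 478 CPM in BMSCs-OE-FNDC5. It rose by 0.61 (SE 0.03, adjusted p = 6.6e-09), with no overlap. Rab31 (chr9:113370033-113504605, minus strand), which runs between the trans-Golgi network and endosomes, had 467, 469 and 473 CPM in BMSCs-OE-NC. In BMSCs-OE-FNDC5 it stood at 222, 227 and 234 CPM. It fell by 1.05 (SE 0.03, adjusted p = 6.4e-11). Rab20 (chr16:83358116-83382326, plus strand), a Rab of endosomes and phagosomes, had 19.6, 15.3 and 17.7 CPM in BMSCs-OE-NC. In BMSCs-OE-FNDC5 it had 38.0, 37.7 and 36.6 CPM, a log2 fold change of 1.09 (SE 0.09, adjusted p = 5.4e-07). The control libraries of Rab20 spread more than the others, and still did not reach them. Rab5b fell by 0.28 (adjusted p = 7.2e-06) with TMM, and with the length trend removed was at 0.10. Rab21, which carries integrins inwards, was higher by 0.36 (adjusted p = 8.6e-07) with TMM, at -0.01 with library size only and at 0.16 with the length trend removed. Rab22a was higher by 0.26 (adjusted p = 0.00027) with TMM, at -0.11 with library size only and at 1.14 with the length trend removed. Its length of 7036 bases was the largest among the tested Rab genes.

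The recycling endosome, which returns receptors and integrins to the surface, had 7 tested genes of 9. With TMM 6 were higher (85.7%, against 36.9% of all genes) and 1 lower (14.3%, against 38.8%). With library size only 2 were higher (all genes 22.0%), 3 lower (all genes 55.4%) and 2 did not pass. Rab15 (chr6:99845954-99870024, minus strand), known for slowing early endocytic traffic and transferrin recycling, had the largest log2 fold change of any Rab gene under TMM. It had 6.09, 7.08 and 6.97 CPM in BMSCs-OE-NC and 17.0, 17.0 and 16.6 CPM in BMSCs-OE-FNDC5, a change of 1.33 (SE 0.11, adjusted p = 7.5e-07). With the length trend removed it was 1.68 and with library size only 0.96. Rab4b, a Rab of fast recycling, rose by 0.71 (adjusted p = 1.5e-07), by 0.37 with the length trend removed and by 0.34 with library size only. Rab14, which works between endosomes, the Golgi and the surface, fell by 0.83 (adjusted p = 4.0e-08), and by 0.21 with the length trend removed. Rab11b (chr7:18598880-18612147, minus strand), the highest member, had 369, 370.3 and 366 CPM in BMSCs-OE-NC and 441, 454 and 445 CPM in BMSCs-OE-FNDC5. This was 0.28 (SE 0.02, adjusted p = 1.4e-06) with TMM, -0.09 with library size only and 0.13 with the length trend removed. The same turn was seen for Rab11a (0.36 and -0.01), Rab35 (0.22 and -0.15) and Rab4a (0.27 and -0.10). The call of Rab4a (adjusted p = 0.035) was also lost when replicate 2 or 3 of either group was left out (0.20 to 0.27) and with the replicate block (0.27), and its value with the length trend removed was 0.05.

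With TMM, late endosomal and lysosomal Rabs were the compartment with the fewest calls. Of 6 tested genes, 1 rose, 1 fell and 4 did not pass (33.3% called, against 75.7% of all genes). With library size only 4 fell (all genes 55.4%). With the length trend removed 2 rose (all genes 40.7%) and 3 fell (all genes 30.8%). With so few genes per compartment, a difference from these shares of all genes was not tested. Rab7a, the Rab of late endosomes that also serves the fusion of autophagosomes with lysosomes, had 323, 315 and 314 CPM in BMSCs-OE-NC and 328, 330 and 327 CPM in BMSCs-OE-FNDC5. The groups did not overlap, yet the log2 fold change of 0.05 (SE 0.03, adjusted p = 0.11) did not pass. It passed as higher with the scaling of DESeq2 (0.079), in DESeq2 itself (0.075), on both log2 FPKM scales (0.074 and 0.075) and with the length trend removed (0.18), and as lower with library size only (-0.32). No direction is therefore given for Rab7a. Rab32 (chr1:4637491-4653210, minus strand), a Rab of lysosome-related organelles and of mitochondria, had 159, 167 and 164 CPM in BMSCs-OE-NC. In BMSCs-OE-FNDC5 it had 75.2, 69.2 and 77.6 CPM, and it fell by 1.14 (SE 0.04, adjusted p = 1.2e-09). Rab7b, which links late endosomes with the trans-Golgi network, was higher by 0.56 (adjusted p = 0.0075) with TMM, and its value of 0.19 with library size only did not pass. Rab9a, which returns mannose 6-phosphate receptors to the Golgi, was at -0.12, Rab12 at -0.06 and Rab29, a Rab that recruits the kinase LRRK2, at 0.18. These 3 did not pass with TMM. Rab12 was called lower with the length trend removed (-0.57) and with library size only (-0.43), as was Rab9a (-0.39 and -0.49).

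Among the remaining Rabs, 5 of 7 were tested. With TMM 2 were higher (40%, against 36.9% of all genes), 2 lower (40%, against 38.8%) and 1 did not pass. Rab28, a Rab of cilia and the highest of this group per length, had 52.4, 49.5 and 52.3 CPM in BMSCs-OE-NC and 47.1, 48.3 and 39.2 CPM in BMSCs-OE-FNDC5. It fell by 0.20 (SE 0.07, adjusted p = 0.028), but without BMSCs-OE-FNDC5 replicate 3, its lowest library, the value was -0.10 and did not pass, and the call was also lost without BMSCs-OE-NC replicate 1 (-0.19) or 3 (-0.20). Rab23, a brake on Hedgehog signalling, fell by 0.48 (adjusted p = 0.00039) with TMM and was at 0.03 with the length trend removed. Rab40c, which serves a ubiquitin ligase, was higher by 0.48 (adjusted p = 3.5e-06) with TMM and did not pass at 0.11 with library size only, and it shares 4500 bases with Mettl26 on the other strand. Rab24, linked to autophagosomes, was higher by 0.47 (adjusted p = 1.3e-06), and by 1.25 with the length trend removed. Its row spans 3062 bases of Prelid1 on the other strand, which was listed at 0 in every library. No strand setting is stated in the sources used here, so reads of such overlapping pairs cannot be told apart. Rab42 at 0.61 (10 to 20 counts) did not pass.

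Rab genes that share a number are close relatives, and the ratio of their counts within a library needs no scaling between libraries. In 9 such pairs both members were tested, and in 8 the ratios of the groups did not overlap. The levels of single genes did not overlap for 78.3% of all genes tested. Ratios of other gene pairs were not computed, so the 8 pairs are not set apart from other genes. With 3 libraries against 3 the two-sided exact permutation test cannot go below p = 0.1, the value for each of those 8 pairs (0.1125 after Benjamini-Hochberg adjustment over the 9 pairs). In 2 pairs the members were called in opposite directions under TMM. With library size only Rab8a did not pass (-0.03), and with the length trend removed Rab5b was called higher (0.10), as was Rab5c (0.57). The log2 ratio of Rab8a to Rab8b was 2.74, 2.77 and 2.68 in BMSCs-OE-NC and 4.36, 4.33 and 3.97 in BMSCs-OE-FNDC5. Its mean went from 2.73 ± 0.0437 to 4.22 ± 0.218. The Rab8 pair thus moved further towards Rab8a in every library of BMSCs-OE-FNDC5. The log2 ratio of Rab5b to Rab5c was -0.62, -0.68 and -0.60 in BMSCs-OE-NC and -1.56, -1.50 and -1.52 in BMSCs-OE-FNDC5. Its mean went from -0.63 ± 0.0428 to -1.53 ± 0.0278, so Rab5c gained on Rab5b. In both pairs the member that lost ground had the longer row in the table, 4421 bases for Rab8b beside 1743 for Rab8a and 3250 for Rab5b beside 1875 for Rab5c. With the length trend removed, the difference of the ratio between the groups was 0.81 in place of 1.49 for the Rab8 pair and -0.47 in place of -0.90 for the Rab5 pair.

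The order of the other 7 pairs depended on the length correction. The ratio of Rab33a to Rab33b differed by 1.62 between the groups and by 1.00 with the length trend removed, with 4 to 16 counts of Rab33a per library. Rab3a to Rab3d differed by -0.36 and, with the length trend removed, by -1.06, further than the Rab8 and Rab5 pairs in that fit. Rab7a to Rab7b differed by -0.51 (-0.60 with the length trend removed), Rab4a to Rab4b by -0.45 (-0.32), Rab2a to Rab2b by 0.42 (0.17) and Rab6a to Rab6b by -0.18 (-0.38). Each of these kept its sign in both forms. For Rab11a to Rab11b the difference of 0.085 was within the overlap of the groups (exact permutation p = 0.3), and with the length trend removed it was 0.34. Its mean was -2.20 ± 0.0814 in BMSCs-OE-NC and -2.11 ± 0.0384 in BMSCs-OE-FNDC5.

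**Figure D4:**
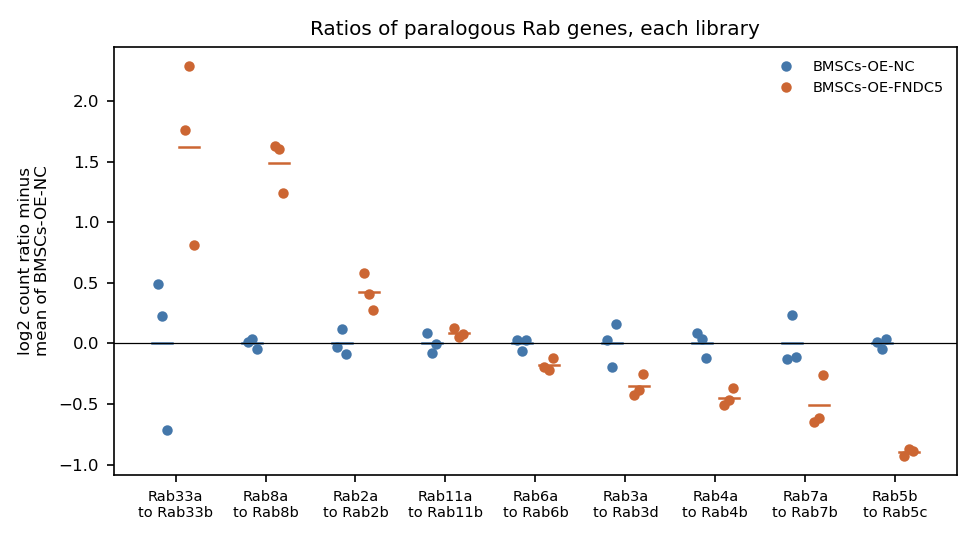
Log2 count ratio of Rab genes that share a number, minus the mean of BMSCs-OE-NC (y axis), with 1 point per library and a line at each group's mean, for 9 pairs. The BMSCs-OE-FNDC5 mean lies at 1.49 for Rab8a to Rab8b and at -0.90 for Rab5b to Rab5c, while the points of Rab11a to Rab11b overlap.

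Promoter sequence is shown for both split pairs and for the Rab genes with the largest rises, so that relatives that moved apart can be read side by side. RefSeq windows of the 250 bases before the transcription start, on build GRCr8, matched 45 of the 56 Rab genes with a single window. Rab30 had 2 windows, and Rab22a, Rab23, Rab24, Rab26, Rab2a, Rab2b, Rab33a, Rab36, Rab37 and Rab38 were not matched. Searched on both strands were the GC box GGGCGG, the core of the site read by Sp1-type factors, which also shows as its reverse complement, and the E-box CACGTG. Capitals mark the GC boxes, and each sequence runs 5′ to 3′ along the gene. Rab8a lies at chr16:17709413-17709662 (minus strand), Rab8b at chr8:76417549-76417798 (minus strand), Rab5c at chr10:86166450-86166699 (minus strand), Rab5b at chr7:1712737-1712986 (minus strand), Rab13 at chr2:177972720-177972969 (plus strand) and Rab15 at chr6:101257084-101257333 (minus strand).
Rab8a: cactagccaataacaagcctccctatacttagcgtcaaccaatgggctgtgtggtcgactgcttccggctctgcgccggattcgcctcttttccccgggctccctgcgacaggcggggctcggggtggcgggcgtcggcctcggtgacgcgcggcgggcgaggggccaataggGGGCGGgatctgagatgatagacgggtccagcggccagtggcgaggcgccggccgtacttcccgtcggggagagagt
Rab8b: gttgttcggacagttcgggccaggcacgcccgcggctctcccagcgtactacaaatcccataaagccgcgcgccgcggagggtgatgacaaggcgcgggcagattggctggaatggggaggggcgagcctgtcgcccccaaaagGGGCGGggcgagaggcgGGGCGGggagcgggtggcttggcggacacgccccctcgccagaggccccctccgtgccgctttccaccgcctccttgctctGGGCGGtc
Rab5c: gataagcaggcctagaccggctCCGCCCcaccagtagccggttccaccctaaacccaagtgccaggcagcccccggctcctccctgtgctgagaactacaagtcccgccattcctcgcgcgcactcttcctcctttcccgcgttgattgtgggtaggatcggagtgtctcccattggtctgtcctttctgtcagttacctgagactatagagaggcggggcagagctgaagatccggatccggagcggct
Rab5b: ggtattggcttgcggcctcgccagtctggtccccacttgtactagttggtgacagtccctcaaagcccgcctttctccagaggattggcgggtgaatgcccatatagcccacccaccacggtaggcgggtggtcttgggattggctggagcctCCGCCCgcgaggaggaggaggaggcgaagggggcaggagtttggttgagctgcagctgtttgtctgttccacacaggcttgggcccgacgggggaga
Rab13: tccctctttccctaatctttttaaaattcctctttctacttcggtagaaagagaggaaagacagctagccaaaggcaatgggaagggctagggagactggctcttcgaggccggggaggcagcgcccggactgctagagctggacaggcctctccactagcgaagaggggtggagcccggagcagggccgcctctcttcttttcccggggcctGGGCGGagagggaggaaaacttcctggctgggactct
Rab15: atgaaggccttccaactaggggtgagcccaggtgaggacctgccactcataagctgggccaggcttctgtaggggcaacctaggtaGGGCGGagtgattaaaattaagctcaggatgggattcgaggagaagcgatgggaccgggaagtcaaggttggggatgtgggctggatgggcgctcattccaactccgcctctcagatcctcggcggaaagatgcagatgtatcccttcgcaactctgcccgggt

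Rab8b carried 3 GC boxes and Rab8a 1, and Rab5b and Rab5c carried 1 each. In neither pair was the motif restricted to the member that rose with TMM or to the one that fell with TMM. Over the tested Rab genes, 31 of 35 promoters (88.6%) held a GC box, against 61.4% of the promoters of all genes tested and 33.6% of all 24206 windows. The share was 93.8% of the 16 Rab genes called higher, 83.3% of the 12 called lower and 85.7% of the 7 that did not pass. Rab32, Rab6a, Rab34 and Rab12 had none in this window. The E-box was in 5.71% of the tested Rab promoters and in 8.61% of those of all genes tested. The median GC content was 63.6% for the tested Rab promoters and 60.8% for all genes tested, so the Rab windows were also the richer in G and C.

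Gene length moved with the fold changes of the Rab genes, as it did across the table. Over the 43 tested Rab genes, Spearman's rho between gene length and log2 fold change was -0.41, and over all genes tested it was -0.44. These values describe genes of the same libraries, which are not independent replicates. The Rab genes called higher had a median length of 1875 bases and those called lower 3298 bases. Among the 22 shorter Rab genes (621 to 1875 bases) 10 were higher, 4 lower and 8 did not pass, with a median log2 fold change of 0.30. Among the 21 longer ones (2088 to 7036 bases) 9 were higher, 10 lower and 2 did not pass, with a median of -0.20. Rab15 with 3093 bases and Rab3d with 3769 bases were among the 9 longer genes called higher. With the trend removed, no Rab gene lay below -1, the 4 that had done so lay between -0.57 for Rab8b and -0.76 for Rab32, and Rab15 (1.68), Rab24 (1.25), Rab3d (1.18) and Rab22a (1.14) lay above 1, beside 11.1% of all genes below -1 and 8.91% above 1 in that fit. The part of length in the fold changes of single genes was not tested beyond this fit.

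**Figure D5:**
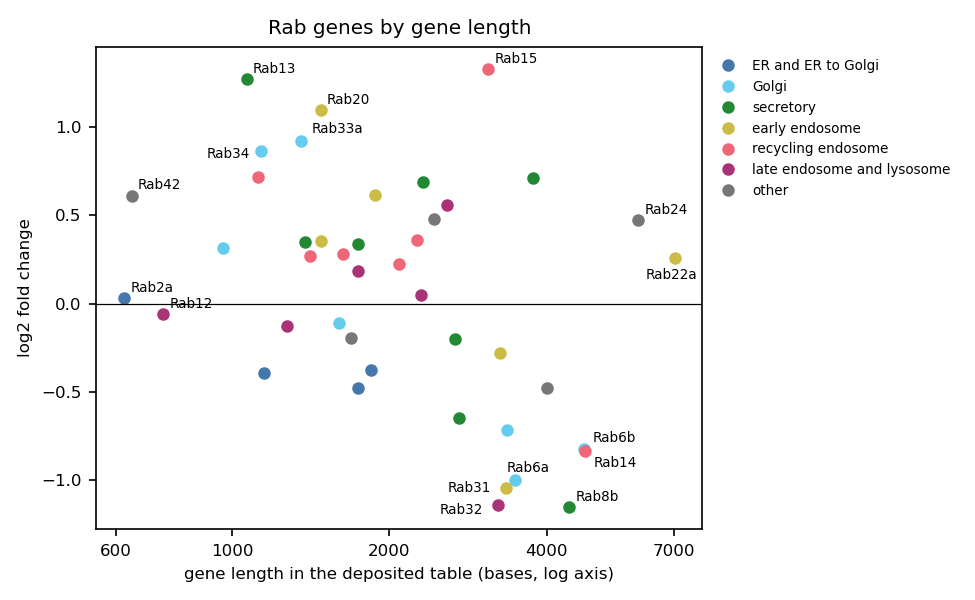
Log2 fold change of each tested Rab gene under TMM (y axis) against its gene length in the deposited table (x axis, bases, log scale), coloured by compartment. The 4 genes below -1 or at it, Rab31, Rab6a, Rab32 and Rab8b, are 3231 to 4421 bases long, while Rab15 at 3093 bases stands at 1.33.

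The proteins that load, deliver, read and switch off Rabs were described from 6 lists of 170 symbols, of which 161 were in the table and 140 were tested. With TMM 42 were higher (30.0%, against 36.9% of all genes tested), 72 were lower (51.4%, against 38.8%) and 26 did not pass. Past both thresholds were 7 higher (5.00%, against 9.84%) and 36 lower (25.7%, against 17.5%). With library size only 21 of 140 were higher (against 22.0% of all genes) and 94 lower (67.1%, against 55.4%). With the length trend removed 60 were higher (42.9%, against 40.7%) and 45 lower (32.1%, against 30.8%), and the median of -0.29 became 0.17. The shares of all genes are the background for each of the lists below. These genes are long, with a median of 3791 bases beside 2262 for all genes tested, and the balance of rises and falls in the lists turned with that correction.

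In prenylation, extraction and delivery, 3 of 7 tested genes rose and 2 fell. Rabac1, a Golgi protein that binds prenylated Rabs, stood at 312 ± 2.80 CPM in BMSCs-OE-NC and at 638 ± 21.1 CPM in BMSCs-OE-FNDC5 (log2 fold change 1.03, adjusted p = 9.4e-11). With the length trend removed its value was 0.58. Chm, a Rab escort protein, fell by 2.71 (adjusted p = 7.4e-05), from 36 to 52 counts per library to 2 to 7, and by 2.29 with the length trend removed. Rabif, a chaperone of Rabs without nucleotide, varied 6.92-fold between the libraries of BMSCs-OE-FNDC5 and gave no call. Of the exchange factors, 6 of 33 rose (18.2%, against 36.9% of all genes) and 18 fell (54.5%, against 38.8%) with TMM, while 13 rose (39.4%, against 40.7%) and 9 fell (27.3%, against 30.8%) with the length trend removed. Rin2, a GEF of Rab5, fell from 438 ± 7.46 to 205 ± 2.54 CPM (log2 fold change -1.09, adjusted p = 3.7e-11), and by 0.46 with the length trend removed. Mon1a, a subunit of the GEF of Rab7, rose by 1.04 (adjusted p = 6.3e-08), or by 1.08 with the length trend removed, while Rab7a itself did not pass with TMM. Rab3ip, a GEF of Rab8, rose by 1.33 (adjusted p = 0.0077), or by 1.29 with the length trend removed, at 7 to 27 counts per library. Dennd4c, a GEF of Rab10, fell by 2.55, Ric1, part of a GEF of Rab6, by 2.26, and Sbf2, a protein of the DENN family, by 1.36. With the length trend removed Dennd4c was at -1.78, Ric1 at -1.67 and Sbf2 at -0.49. Rab10 and Rab6a were lower too, as given above.

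The subunits of the TRAPP complexes, GEFs of Rab1 and, in one form, of Rab11, were split. Of 14 tested subunits 8 rose (57.1%, against 36.9% of all genes) and 6 fell (42.9%, against 38.8%), with 8 (57.1%, against 40.7%) and 5 (35.7%, against 30.8%) when the length trend was removed. Past both thresholds, Trappc5, Trappc3 and Trappc6a rose by 1.03, 1.09 and 1.05 (adjusted p = 2.5e-10, 5.6e-09 and 9.3e-09). Trappc8, a large subunit of TRAPPIII, fell by 2.28 (adjusted p = 4.4e-08). These rows have 1202 bases for Trappc5, 1355 for Trappc3, 965 for Trappc6a and 5157 for Trappc8. Among the others, Trappc2 (1366 bases, -0.82) and Trappc6b (1184 bases, -0.50) fell and Trappc9 (4667 bases, 0.33) rose. The part of length in these differences was not tested. Once the length trend was removed no subunit lay above 1, and Trappc8 (-1.60) and Trappc2 (-1.05) lay below -1. Of the GAPs, 11 of 33 rose (33.3%, against 36.9%) and 15 fell (45.5%, against 38.8%) with TMM, and 14 rose (42.4%, against 40.7%) and 11 fell (33.3%, against 30.8%) with the length trend removed. Tbc1d15 (-1.17), a GAP of Rab7, Rabgap1 (-1.11), Evi5 (-1.71) and Tbc1d23 (-1.07) had the smallest p-values among those below -1 with TMM, where no GAP was above 1. Without the length trend none of the GAPs lay below -1 (these 4 were at -0.79, -0.45, -0.95 and -0.59), and 6 lay above 1, the highest being Tbc1d8 (1.36).

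Effectors followed the same split by fit. Of 34 tested effectors of endosomes and lysosomes 10 rose (29.4%, against 36.9%) and 19 fell (55.9%, against 38.8%) with TMM, and 15 rose (44.1%, against 40.7%) and 12 fell (35.3%, against 30.8%) with the length trend removed. Ankfy1 (-1.44) and Rabep1 (-1.50), both effectors of Rab5, Acap2 (-1.61), an effector of Rab35, and Vps41 (-1.95), a subunit of the HOPS tether of late endosomes, fell. Of 19 tested effectors of the Golgi and of secretion, 4 rose (21.1%, against 36.9%) and 12 fell (63.2%, against 38.8%) with TMM, and 8 rose (42.1%, against 40.7%) and 6 fell (31.6%, against 30.8%) with the length trend removed. The tether Uso1 (-1.07), an effector of Rab1, the golgins Golga5 (-1.38) and Tmf1 (-2.47), and Mical3 (-1.34), an effector of Rab8, fell. With the length trend removed Uso1 was at -0.58, Golga5 at -1.16, Tmf1 at -2.01 and Mical3 at -0.55. Sytl1, a synaptotagmin-like effector of Rab27, rose by 1.09 (adjusted p = 1.8e-06), or by 1.16 with the length trend removed. Rab27a did not pass with TMM and Rab27b was too low to test.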

How the data were processed

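The RNA-seq libraries were 3 per group, BMSCs-OE-FNDC5 and BMSCs-OE-NC. The authors deposited whole-number gene counts and FPKM values, with gene length in bases, and the tools they list, with no role given, are DESeq2, HTSeq 0.6.0, TopHat2, HISAT2 2.1.0, Bowtie2 2.2.3 and CASAVA. The notes name the mouse build mm10, whereas the identifiers are rat Ensembl, so the coordinates of genes are given as in the table, with no build.

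The counts were fitted with edgeR 4.0.16 under R 4.3.3 (filterByExpr with minimum count 10 and minimum total 15, TMM, glmQLFit and glmQLFTest, group as the only term), with Benjamini-Hochberg adjustment across the 12104 tested genes. CPM are TMM-scaled. Log2 ratios of relatives used a pseudocount of 0.5 counts and an exact permutation test. The alternatives used DESeq2 1.42.0, limma 3.58.1, other scalings and filters, log2 of FPKM plus 1 or 0.1, and a lowess of span 0.3 on gene length as offset. The procedure was tested on simulated data with 200 of 12104 genes changed. It recovered 61.2% of 1.5-fold, 83.6% of 2-fold and 95.5% of 4-fold changes, and 6.98% of its calls were false. In these data 75.7% of genes were called, so that simulation does not bear on scaling under so wide a difference. Values in every library are given for Rab genes past both thresholds (adjusted p under 0.05, absolute log2 fold change over 1) and for the highest of each compartment by FPKM, and in each list up to 4 genes per direction with the smallest p past both are named. Other Rab genes with values were taken so that each tested member is accounted for. Sytl2, with 2 rows, was left out. The members, compartments and lists were chosen with earlier results of these data known. Counts between 16640635 and 17965722 per library limit the genes under the filter. Promoter windows came from RefSeq (GRCr8). Plots were made in matplotlib 3.10.9 (Python 3.11.15).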

Additional observations from a re-analysis of the deposited data

How the results depend on the processing

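The counts of Rab genes called higher or lower depended on scaling, and hardly on the test. Removing the length trend left them at 19 and 15, beside 19 and 14 in the main fit. It changed the count below -1 and the values of single genes. With library size only, 9 Rab genes were higher and 23 lower, 0 above a log2 fold change of 1 and 8 below -1, and 21 regulators and effectors were higher. The values of Rab11b (-0.092), Rab7a (-0.32), Rab2a (-0.34), Rab21 (-0.014), Rab35 (-0.15), Rab8a (-0.035), Rab11a (-0.0087), Rab22a (-0.11), Rab43 (-0.057) and Rab4a (-0.10), and of Rab3a (-0.019) and Rab29 (-0.19), which passed in neither fit, turned negative. With the length trend removed, 0 Rab genes lay below -1, 45 regulators and effectors were lower, and Rab5b (0.10), Rab2a (-0.54), Rab43 (-0.10) and Rab23 (0.034), and Rab27a (0.040), which passed in neither fit, changed sign. The cause was not tested. With log2(FPKM + 1), 2 Rab genes lay below -1. Under the other alternatives 18 to 22 Rab genes were higher and 13 to 15 lower. Without each library in turn these were 18 to 20 and 13 to 14, with 2 to 3 above 1 and 3 to 4 below -1. With the replicate block 18 were higher and 14 lower, and correlations of deviations between libraries of the same number were 0.021, -0.025 and -0.0047, so the numbers were not taken as pairs. The block ended the call of Rab4a and changed no other Rab call. Summing CPM in place of FPKM gave differences in share, in percentage points, of -2.77 for the early endosome, -2.26 for the ER, 2.94 for the Golgi, 2.48 for recycling, 1.93 for secretory and 0.383 for the remaining Rabs. Depth limited the 8 Rab genes with at most 21 counts, for which no difference was detectable.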

Other observations

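A handful of genes lie close to the Rab family by name without matching its symbols. LOC100363782, which the table describes as similar to Rab1b, had 76.1 ± 2.77 CPM in BMSCs-OE-NC and 110 ± 1.57 CPM in BMSCs-OE-FNDC5 (SD, n = 3), with a log2 fold change of 0.54 (adjusted p = 2.2e-07), beside -0.38 for Rab1a. With the length trend removed it was 0.48 and with library size only 0.17. Rab5if, which the name ties to Rab5, was at 216 ± 3.52 and 340 ± 5.50 CPM (log2 fold change 0.66, adjusted p = 2.5e-09). Rabl6 was at 0.54 (adjusted p = 6.5e-07) and Rabl2, a ciliary Rab-like protein, at -0.53 (adjusted p = 0.013). Rabl3 at -0.05 (adjusted p = 0.69) did not pass.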
